A study of Mus musculus with 2 samples.

Results

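Fibroblast growth factor (FGF) signalling genes were examined in cultured cells labelled as osteoblasts, which lay down bone. The cells came from the calvariae (skull vaults) of newborn mice. The set was 10 genes chosen for their place in the pathway, with earlier results of these data known. These were the receptors Fgfr1, Fgfr2 and Fgfr3, ligands Fgf2 and Fgf7, feedback inhibitors Spry1, Spry2, Spry4 and Dusp6, and the transcription factor Etv5. They were read from probe sets whose annotation names 1 gene alone. All 10 genes were found, with 16 of the 20380 single-gene probe sets on the array, out of 12393 genes in all. The 2 arrays compared were 1 labelled Col1-Dlk1 and 1 labelled wild type. The Col1-Dlk1 label stands for mice that overexpress Dlk1, a transmembrane protein known to regulate progenitor differentiation, from a transgene named after type I collagen. The controls were littermates without the transgene, and both groups were C57Bl/6 mice 4 to 5 days old. Cells were released with trypsin and collagenase and grown in medium with 20% serum. Each array held RNA of 3 combined cultures, so no spread over cultures or animals can be given. Cells positive for Dlk1 were enriched by sorting from the transgenic cultures. The labels do not say whether the wild-type cells were sorted.

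Most FGFs are secreted proteins that bind receptor tyrosine kinases together with heparan sulfate on the cell surface. The activated receptor recruits adaptors that switch on Ras and the kinases RAF, MEK and ERK, and ERK signalling in turn induces its own inhibitors, among them the Sprouty proteins and the ERK phosphatase encoded by Dusp6. In the skull vault this pathway controls how suture progenitors divide and become osteoblasts, and activating mutations of FGF receptors are a classic cause of early suture fusion.

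Values are the authors' probe-set intensities on a linear scale. The level threshold was 42.8, the median of all values, and a gene passed it when the brighter array reached that level. Differences are log2(intensity + 10.96) on the array labelled Col1-Dlk1 minus the same on the array labelled wild type, averaged over a gene's probe sets. On this scale, differences of dim genes come out too small. A gene counted as called when it passed the level threshold and differed at least 2-fold on this scale. With 1 array per group there is no replicate check of any difference, and a call compares these arrays and not the genotypes.

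The labels were checked first on Dlk1 itself. Its 1 probe set read 26.5 on the array with the Col1-Dlk1 label and 306 on the other, which goes against the label. The labels do not say whether this probe set detects the transgene's transcript, so every direction below is between arrays as labelled. Pairs of values are given as the array labelled Col1-Dlk1 against the array labelled wild type. Of 10 osteoblast markers listed, 7 were measured. Col1a1 and Col1a2, which encode type I collagen, and the matrix gene Sparc passed the level threshold on both arrays, whereas Sp7, Alpl, Ibsp and Pth1r did not on either. All 15 macrophage markers were higher by 2-fold or more on the array labelled Col1-Dlk1, with summed intensities of 23357 against 234, led by C1qa and Lyz2. All 7 measured cell cycle markers were at least 2-fold lower, with sums of 1651 against 5761, led by Plk1 and Cdk1. Osteoclast markers had 2 of 5 measured genes higher (Acp5 and Ctsk), the only 2 that passed the level threshold. Acp5 read 50.6 against 4.45 and Ctsk 631 against 266. Only on the array where it was higher did Acp5 reach the level threshold. Of 6 chondrocyte markers 3 passed it, and 1 of them was lower (Sox9). Of 6 endothelial markers only 1 passed it and 0 were called, so most of that list could not be called. Among all level-passing genes, 16.5% were called. In a mixed culture, fewer cells of a type and less RNA per cell cannot be told apart. The part of these other cells, and of the sort, in the FGF values was not tested.

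None of the 10 FGF genes was called in either direction. Of the 6795 genes that passed the level threshold, 16.5% were called, 9.39% higher and 7.11% lower on the array labelled Col1-Dlk1. The threshold was passed by 6 members: Fgfr1, Fgfr2, Fgf7, Spry1, Spry2 and Dusp6. Fgfr2 had the widest difference among them, 0.99 on the log2 scale, and the other 5 lay between -0.41 and 0.09. The median over those 6 was -0.25, against 0.02 over all level-passing genes. Fgfr3, Fgf2, Spry4 and Etv5 were below the threshold on both arrays and could not be called at any fold.

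**Figure D1:**
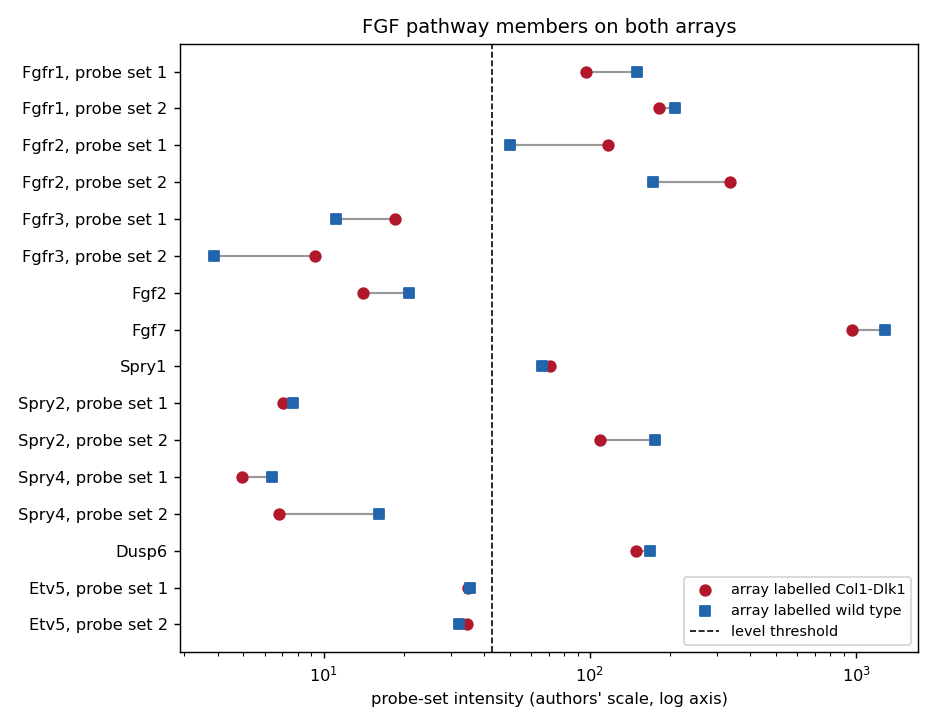
Intensity of each of the 16 member probe sets (log axis) on the array labelled Col1-Dlk1 (red circles) and the array labelled wild type (blue squares), with the level threshold of 42.8 as a dashed line. In all, 8 probe sets reach the threshold on at least 1 array, and both probe sets of Fgfr2 read higher on the array labelled Col1-Dlk1.

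Among the receptors, Fgfr2 read higher and Fgfr1 lower on the array labelled Col1-Dlk1. FGFR2 is the receptor best known from craniosynostosis syndromes, and in the skull vault it marks osteoprogenitors at the suture margins. Its first probe set read 117 against 49.9, a log2 difference of 1.07. Its other probe set read 335 against 172, a log2 difference of 0.92, so 1 of the pair lay beyond 2-fold. Both probe sets therefore pointed the same way, and their differences lay 0.15 apart. The gene average was 199 against 94.6, a 1.99-fold difference just short of the 2-fold rule. On a scale from the most negative to the most positive difference of level-passing genes, Fgfr2 stood at percentile 90.4. A smaller pseudocount of 1 gave 1.08 and a call, so the side of the rule on which Fgfr2 falls depends on that choice.

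Fgfr1 encodes the FGF receptor that is widely present in mesenchymal cells. Its first probe set read 96.3 against 150.2, a log2 difference of -0.59. The other probe set read 182 against 209, a log2 difference of -0.19. Both were below 0, and the differences lay 0.40 apart. The gene average of -0.39 stood at percentile 25.3 of level-passing genes.

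Fgfr1 and Fgfr2 thus differed in opposite directions, though the Fgfr1 difference of -0.39 was smaller in size than the median of 0.42 over level-passing genes. Their differences lay 1.38 log2 units apart, and the 4 pairings of an Fgfr1 with an Fgfr2 probe set gave gaps of 1.11 to 1.65. For comparison, over 6062 pairs of level-passing probe sets that name 1 gene, the median gap between differences was 0.30, and 90% of the gaps were within 0.87. This is a spread between probe sets of the same gene on the same RNA, not between cultures or between different genes. FGF receptor genes are spliced into isoforms with different ligand preferences, and the values used here do not separate them. Fgfr3, the receptor that restrains growth plate cartilage, read 18.5 against 11.2 and 9.32 against 3.87 with its probe sets, all below the level threshold.

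**Figure D2:**
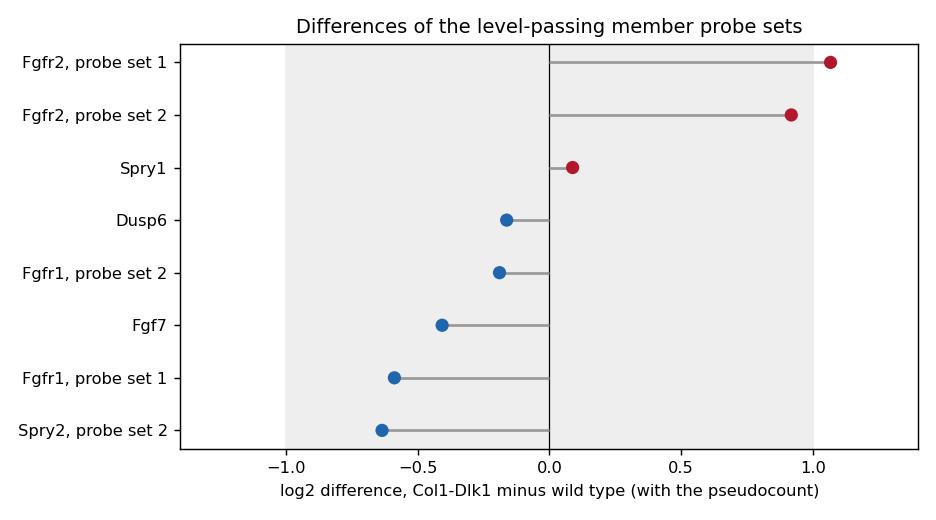
Log2 difference (array labelled Col1-Dlk1 minus array labelled wild type, with the pseudocount) of the 8 level-passing member probe sets, red above and blue below 0, with the range within 2-fold shaded. The Fgfr2 probe sets lie at 0.92 and 1.07 and the other 6 probe sets between -0.63 and 0.09.

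Of the ligands, Fgf7 was clearly above the level threshold on both arrays and Fgf2 was not. Fgf7 encodes keratinocyte growth factor, which mesenchymal cells secrete and which acts mainly on an epithelial splice form of FGFR2. It read 963 against 1280.4, a log2 difference of -0.41 at percentile 24.3. Fgf2, the basic FGF that is widely used to expand osteoprogenitors, read 14.0 against 20.8. Both values lie below the level threshold, so no fold is given.

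Sprouty genes are induced by ERK signalling, and their products dampen it at the level of receptor adaptors and Ras. Spry1 read 71.1 against 66.2, a log2 difference of 0.09, the smallest in size among the 6 members that passed the level threshold. Spry2 had a bright and a dim probe set. The bright one read 109 against 176, a log2 difference of -0.63. The dim one read 7.01 against 7.70, below the level threshold on both arrays. Averaging both gave 35.6 against 48.1 for the gene, a log2 difference of -0.34. The gene average thus passed the level threshold only on the array labelled wild type. Leaving out the dim probe set gave -0.63. That alternative was added after seeing the data. Spry4 stayed dim, with 4.94 against 6.40 on one probe set and 6.83 against 16.1 on the other.

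Dusp6 encodes a cytoplasmic phosphatase that removes the activating phosphates from ERK, and its transcript is often used as a readout of ERK activity. It read 149 against 168, a log2 difference of -0.16 at percentile 38.4. Etv5, an ETS family transcription factor gene downstream of FGF receptors, read 34.8 against 35.6 and 34.4 against 32.3. These Etv5 probe sets lie below the level threshold and show nearly the same intensity on both arrays. Between the inhibitors, Spry2 and Dusp6 had negative differences and Spry1 a small positive one, each under 2-fold.

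**Figure D3:**
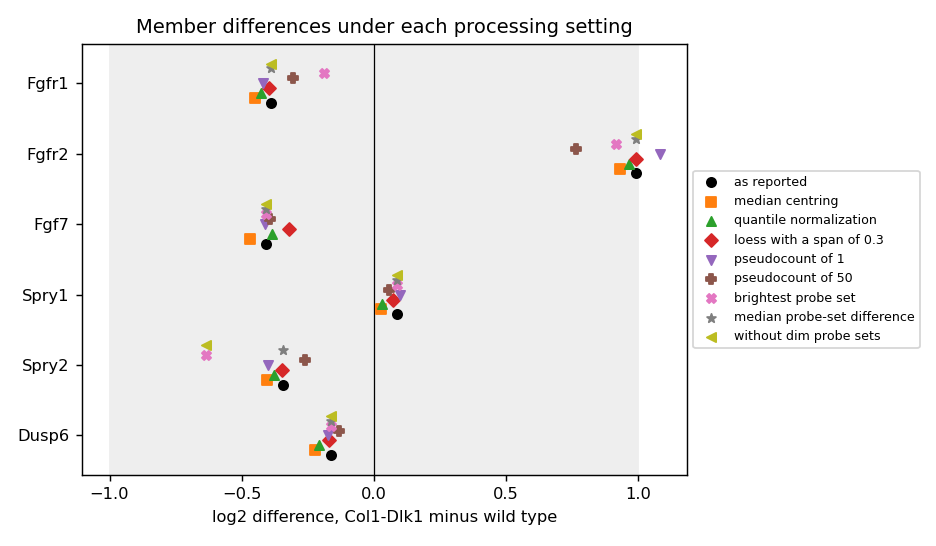
Log2 difference of the 6 level-passing members (array labelled Col1-Dlk1 minus array labelled wild type) under the processing as reported (black) and 8 alternatives (colours), with the range within 2-fold shaded. Fgfr2 ranges from 0.77 to 1.08, Spry1 from 0.03 to 0.10, and Fgfr1, Fgf7, Spry2 and Dusp6 stay below 0 in all 9 settings. The median probe-set difference repeats the reported values by construction, as each member shown has 1 or 2 probe sets.

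Promoter sequences were available from RefSeq (GRCm38) for 8 of the 10 members, with 10 start sites between them. Fgfr1 and Spry4 had no entry. The 250 bases before each start were read on the strand of the gene. In base composition, 8 of the 10 windows were richer in G and C than the median of 52.4% over all 32851 promoters of the table. The exceptions were the windows of Fgfr2 (44.0%) and Fgf7 (43.6%). Fgfr2 held 2 CG dinucleotides and Fgf7 held 6, against 23 each for Spry1 and Spry2 and a median of 6 over all promoters. The table is not complete, and Fgfr2 may have starts that it does not list. The windows of Fgfr2, Fgf7 and Spry2 are printed to show this contrast, with each CG in capitals. They lie at chr7:130266809-130267058 on the minus strand, chr2:126034408-126034657 on the plus strand and chr14:105896820-105897069 on the minus strand.
Fgfr2: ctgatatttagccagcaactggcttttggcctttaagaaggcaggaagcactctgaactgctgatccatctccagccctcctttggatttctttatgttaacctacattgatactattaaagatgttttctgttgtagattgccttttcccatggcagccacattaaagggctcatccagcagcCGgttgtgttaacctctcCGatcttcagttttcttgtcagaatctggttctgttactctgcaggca
Fgf7: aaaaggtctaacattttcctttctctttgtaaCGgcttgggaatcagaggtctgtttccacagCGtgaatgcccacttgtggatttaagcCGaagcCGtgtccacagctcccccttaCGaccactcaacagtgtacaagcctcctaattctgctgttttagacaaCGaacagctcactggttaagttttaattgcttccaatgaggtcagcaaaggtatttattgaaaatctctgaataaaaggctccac
Spry2: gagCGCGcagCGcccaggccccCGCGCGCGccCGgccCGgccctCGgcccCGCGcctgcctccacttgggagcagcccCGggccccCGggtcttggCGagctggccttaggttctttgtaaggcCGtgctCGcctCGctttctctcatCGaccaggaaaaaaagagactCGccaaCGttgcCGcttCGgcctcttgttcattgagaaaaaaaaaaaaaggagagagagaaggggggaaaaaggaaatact

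Motifs of transcription factors that ERK signalling acts on were searched in these windows on both strands. The ETS motif CCGGAA, which does not overlap the other motif, was found in 0 of the 10 member windows and in 12.0% of all promoters. The AP-1 motif TGANTCA was found in 0 of the 10 and in 6.75% of all promoters. These letters are therefore not in the windows examined, which says nothing of sites elsewhere.

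The rest of the pathway was described with 5 lists of 93 genes, of which 75 were measured and 42 passed the level threshold. Of these 42, 5 were called higher and 5 lower, a share of 23.8% beside 16.5% of all level-passing genes (9.39% higher and 7.11% lower). The lists were chosen with earlier results of these data known, so this share is not independent of the data. Of the calls, 3 higher and 4 lower ones were in the list of other ERK feedback inhibitors and targets. The heparan sulfate list held the remaining 2 higher and 1 lower. Beyond Fgf2 and Fgf7, 20 FGF family genes were measured, and all 20 were below the threshold on both arrays. Fgf9 came closest, at 42.76 against 21.9, and Fgf10 read 3.66 against 23.2. Fgf18, a ligand known from skull sutures, read 8.45 against 9.50. Fgf7 was thus the 1 FGF family gene, among the 22 measured, that passed the level threshold. Of the other receptors and co-receptors, 5 of 9 were measured, and Fgfrl1, which encodes an FGF receptor without a kinase domain, alone passed the threshold. It read 109 against 158, a log2 difference of -0.49, while Fgfr4 and the klotho genes Kl and Klb were below it.

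Heparan sulfate genes, whose products carry or shape the sugar chains that FGFs need for receptor binding, had 17 measured genes, of which 16 passed the level threshold. Of those 16, 2 were called higher and 1 lower, a share of 18.8%, near the 16.5% of all level-passing genes. Their median was 0.33, against 0.02 over all such genes. Sulf2, an enzyme that removes sulfate groups from heparan sulfate outside the cell, read 796 against 174, a log2 difference of 2.13. Hspg2, which encodes the basement membrane proteoglycan perlecan, read 372 against 175, a difference of 1.04. Hspg2 was not called after median centring, with a pseudocount of 50 or by its brightest probe set. Hs6st1, an enzyme that adds sulfate to the same chains, read 54.8 against 147, a difference of -1.27, and was not called with a pseudocount of 50. All 15 macrophage markers differed in the direction of Sulf2 and Hspg2, and their part in these values was not tested.

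Among adaptors and the Ras-ERK cascade, 12 of 16 measured genes passed the level threshold, with a median of 0.20, and 0 were called. Over all level-passing genes the median was 0.02 and 16.5% were called. The widest differences were those of Shc1, an adaptor of receptor tyrosine kinases, at 0.84 (274 against 148), and Ptpn11, the phosphatase SHP2 that acts downstream of FGF receptors, at -0.74 (116 against 201). Nras followed at 0.60 (222 against 143). Its 3 probe sets disagreed, with 1 at -0.02 and the others at 0.81 and 0.99.

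Other ERK feedback inhibitors and targets had 17 measured genes, of which 13 passed the level threshold, with a median of -0.34. Of those 13, 3 were called higher and 4 lower, a share of 53.8% beside the 16.5% of all level-passing genes. The list was chosen with earlier results of these data known, so this share is not independent of the data. Many of them also respond to signals other than FGF. Fos, an AP-1 subunit gene, read 3699 against 581, a log2 difference of 2.65. Dusp1, which encodes a nuclear phosphatase of MAP kinases, read 2080.3 against 533, a difference of 1.94. Errfi1, an inhibitor of EGF receptors, read 579 against 1830 in the opposite direction, a difference of -1.64.

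The other called genes of that list are named after their values were seen. Ccnd1, the cyclin D1 gene, was higher (1.15), and Fosl1 (-1.63), Egr1 (-1.24) and Myc (-1.02, not called with a pseudocount of 50) were lower. The Ccnd1 probe sets lay at 0.58, 1.52 and 1.36, the first of them within 2-fold. Spred1 and Spred2, relatives of the Sprouty genes, were within 2-fold at 0.21 and -0.34. Etv4, of the same ETS subgroup as Etv5, read 5.40 against 36.9, below the level threshold on both arrays. All 7 measured cell cycle markers were lower and all 15 macrophage markers higher between the same arrays, and their part in these differences was not tested.

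**Figure D4:**
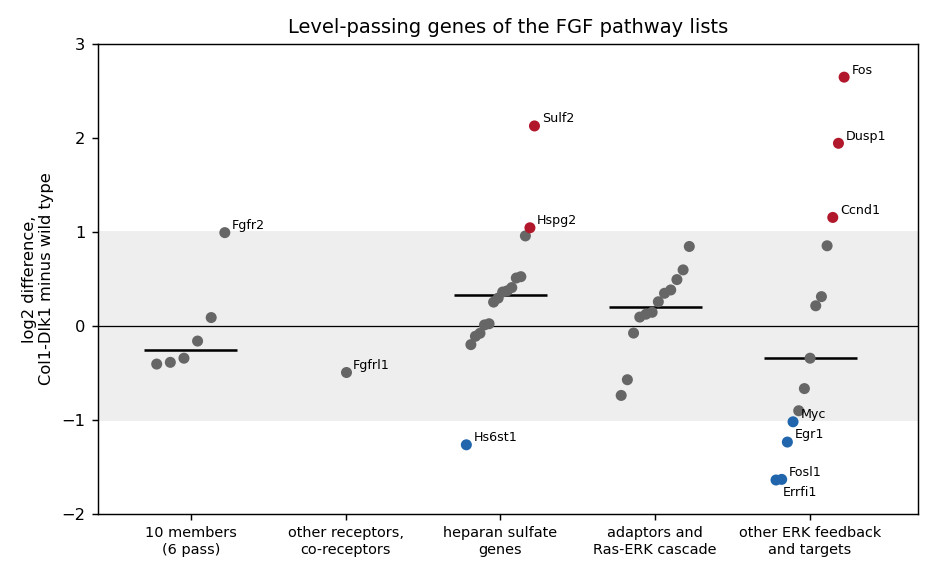
Log2 difference (array labelled Col1-Dlk1 minus array labelled wild type) of level-passing genes among the 10 members and in 4 of the 5 pathway lists. The list median is a bar, called genes are red (higher) or blue (lower), and the range within 2-fold is shaded. The list of other FGF family genes had no level-passing gene. The members and the Ras-ERK cascade hold no called gene, beside 16.5% called among all level-passing genes. The ERK feedback and target list spans from -1.64 (Errfi1) to 2.65 (Fos).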

How the data were processed

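RNA from the cultures was labelled with biotin and hybridised to Affymetrix mouse arrays. The authors deposited 1 linear intensity per probe set, and the submitters' processing notes name Affymetrix Expression Console 1.1.1. Its algorithm and background correction are not given in the labels or notes used here. The mean after trimming 2% at each end was 150.06 and 150.07, so the arrays share a scale, and their medians were 43.8 (Col1-Dlk1) and 41.5 (wild type). The array named in the design text differs from the annotation's platform, and probe sets were joined by ID. Of 20380 single-gene probe sets, 20351 matched a RefSeq gene ID, which gave current symbols. List genes that no single-gene probe set names were not analysed here.

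The pseudocount of 10.96 is the lower quartile of all values. Members and lists were chosen with earlier results of these data known. The named genes are all members, Dlk1, up to 3 level-passing genes with the largest difference per pathway list and up to 2 called genes per marker list. Other genes named were chosen after their values were seen. With 1 array per group no test, p-value or standard error was computed, and genes were not ranked by likeness to a member. Alternatives covered scaling, pseudocount, probe-set handling, level and fold. Code was tested on simulated data. Python 3.11.15, numpy 2.4.6, pandas 2.3.3, statsmodels 0.14.6 and matplotlib 3.10.9 were used.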

Additional observations from a re-analysis of the deposited data

How the results depend on the processing

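None of the 6 members that passed the level threshold reversed direction under median centring, quantile normalization, loess or pseudocounts of 1 and 50. Nor did any with the brightest probe set, the median probe-set difference or, added after seeing the data, the removal of dim probe sets. The median probe-set difference could not change any of them, as each has 1 or 2 probe sets. The brightest probe set could change only Fgfr1, Fgfr2 and Spry2, and removing dim probe sets only Spry2. Members called higher went from 0 to 1, Fgfr2, with a pseudocount of 1 and with a 1.5-fold rule. Those settings called 11.8% and 19.2% of all level-passing genes higher. No setting called a member lower. Pathway genes called lower went from 5 to 3 with a pseudocount of 50 and to 8 with no level threshold. Over all genes eligible at those settings, 3.82% and 6.23% were called lower. A 1.5-fold rule called 9 higher and 8 lower, and a 3-fold rule 3 higher and 2 lower. Of all level-passing genes, the 1.5-fold rule called 19.2% higher and 17% lower, and the 3-fold rule 4.81% and 3%. The fits with other scalings moved the median of level-passing genes to between -0.05 and 0.03. No paired analysis was possible because each group has 1 array, which also leaves no replicate to leave out. Array number limits precision, and signal limits Fgfr3, Fgf2, Spry4 and Etv5, whose intensities lay below the median of all values.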
